A study of Homo sapiens with 4 samples.

Results

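The expression of 10 genes of the epithelial-mesenchymal transition (EMT) was compared in LNCaP, an established androgen-responsive prostate cancer cell line, between cultures given the synthetic androgen R1881 with vehicle and cultures given R1881 with CPI-455, an inhibitor of the KDM5 family of histone H3K4 demethylases. The genes were taken by name from the 60675 genes of the count files. They comprise the transcription factors SNAI1, SNAI2, TWIST1, ZEB1 and ZEB2, the mesenchymal genes CDH2, FN1 and VIM, and the epithelial splicing regulators ESRP1 and ESRP2. All 10 passed the filter on low counts and were among the 17600 genes tested. Each group had 2 RNA-seq libraries. Both groups were grown in phenol red-free medium with hormone-depleted serum and received 1 nM R1881 for 72 h, and the CPI-455 group also received 50 µM CPI-455, while the vehicle was DMSO. LNCaP is a single line in culture, and no group without androgen was analysed here. The study's methods call the libraries biological replicates, but the sample labels do not tie them to separate cultures. The p-values thus measure only the spread between these libraries. With 2 libraries a group, the test estimates the spread of a gene with information shared over genes.

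During EMT, epithelial cells lose junctions and polarity and take on the shape, matrix and motility of mesenchymal cells. The SNAI, ZEB and TWIST factors bind E-box motifs in DNA and repress epithelial genes such as CDH1, while N-cadherin, fibronectin and vimentin are the usual markers of the mesenchymal state. ESRP1 and ESRP2 direct the epithelial pattern of exon use in many transcripts and are themselves repressed by ZEB and SNAI factors. In prostate cancer the program is studied for its part in invasion and in the loss of luminal features.

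Promoter sequence is shown for VIM, the one gene of the 10 called higher, and for FN1 and ZEB1, which were called lower. RefSeq promoter windows of 300 bases (250 bases before to 50 bases after a start site, GRCh38.p14) matched 5 of the 10 genes, namely CDH2, VIM, ZEB1, ZEB2 and FN1. The motif searched was the E-box CAGGTG, read on both strands (CACCTG on the other), a core that SNAI and ZEB factors bind. It was present in 7231 of all 35116 windows (20.6%). Of the 7 ZEB1 windows, 2 held the motif, at 4 places, and the windows of CDH2, VIM, ZEB2 and FN1 held none. The VIM stretch (chr10:17227991-17228240, plus strand) ends at the base before the RefSeq start, and the FN1 stretch (chr2:215436173-215436252, minus strand) ends 104 bases short of it. The 4 ZEB1 places are given with the bases around them, and capitals mark the motif. They lie at chr10:31318348-31318377 (motif 57 bases before a start site), chr10:31318966-31318991 (242 bases before), chr10:31319119-31319148 (85 bases before) and chr10:31319237-31319265 (33 bases after), all on the plus strand.
VIM: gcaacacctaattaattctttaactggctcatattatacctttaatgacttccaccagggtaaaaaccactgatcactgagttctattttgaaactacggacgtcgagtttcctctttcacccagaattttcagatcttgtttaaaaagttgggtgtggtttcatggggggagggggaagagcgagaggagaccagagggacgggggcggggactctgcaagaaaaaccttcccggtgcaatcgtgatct
FN1: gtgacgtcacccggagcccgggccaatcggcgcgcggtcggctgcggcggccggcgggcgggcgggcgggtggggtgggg
ZEB1, 57 before: ccgaggtgacagCAGGTGagggccgggtgc
ZEB1, 242 before: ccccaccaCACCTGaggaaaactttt
ZEB1, 85 before: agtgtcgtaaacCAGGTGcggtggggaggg
ZEB1, 33 after: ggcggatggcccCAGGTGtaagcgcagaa

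These matches describe the letters of the windows, and binding by any factor was not measured.

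The vehicle libraries held 19623553 and 20690819 counts and the CPI-455 libraries 9522920 and 5401588, so 1 count was worth 0.0472 and 0.0457 CPM (counts scaled to library size) with vehicle and 0.112 and 0.198 CPM with CPI-455. All CPM are normalized by the TMM method of edgeR. A count of 3, taken as the detection floor, was 0.142 and 0.137 CPM with vehicle and 0.337 and 0.593 CPM with CPI-455. Intervals on single libraries are exact Poisson intervals at 95% and cover counting error only. Of 10 prostate epithelial genes of LNCaP, 7 were called lower with CPI-455 and none higher (summed CPM 1009 and 935 with vehicle, 392 and 443 with CPI-455). Of all tested genes, 21.3% were called lower. KLK2, not called, went the other way (log2 fold change 0.56, edgeR FDR = 0.00833). The markers of other cell types were low. The 8 fibroblast markers summed to 6.14 and 5.53 CPM with vehicle against 10.4 and 11.3 CPM under CPI-455, most of it COL1A1, with LUM at 0 in all 4 libraries. The 4 leukocyte markers summed to 0.425 and 0.228 against 1.23 and 2.37 CPM, and the 4 endothelial markers to less than 2 CPM in each library. The fibroblast and leukocyte sums were thus higher in both CPI-455 libraries, but through few genes. COL1A2 had 0 and 15 counts with CPI-455, against 1 and 0 with vehicle. COL3A1, PDGFRA, PDGFRB and THY1, with at most 23 counts in a library, had lower mean levels with CPI-455. Of the leukocyte markers, only PTPRC (8 and 0) and CD14 (3 and 12) had counts with CPI-455. In bulk libraries, fewer cells of a type and less RNA per cell cannot be told apart.

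With CPI-455, 5 of the 10 EMT genes were called, taking as called a false discovery rate (FDR, Benjamini-Hochberg) below 0.05 in edgeR's quasi-likelihood test and a change of at least 2-fold. ESRP1, CDH2, FN1 and ZEB1 fell and VIM rose. Of all tested genes, 42.4% were called, 21.3% lower and 21% higher, and of the 13813 tested protein-coding genes 24.4% were called lower and 15.6% higher. The median log2 fold change (CPI-455 over vehicle) of the 10 genes was -0.72, against -0.04 over all tested genes and -0.21 over the protein-coding ones, and 7 of the 10 had a negative value. With a trend on exon length and GC taken out, the median of the 10 was -0.48. At any size of change, 8 of the 10 had an FDR below 0.05 (6 lower, 2 higher), against 62.6% of all tested genes.

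**Figure D1:**
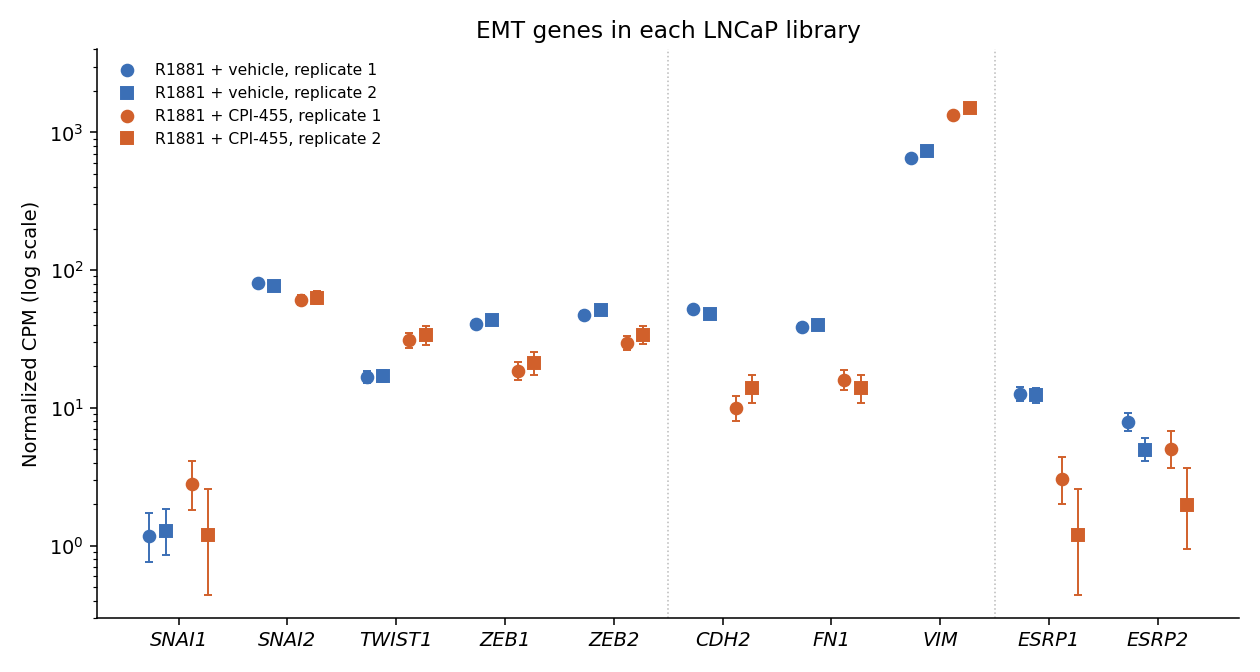
Normalized CPM (log scale) of the 10 EMT genes in each of the 4 LNCaP libraries, with vehicle in blue and CPI-455 in orange, circles for replicate 1 and squares for replicate 2, and bars for the exact Poisson interval at 95% of each count. CDH2, FN1, ZEB1 and ESRP1 sit lower in both CPI-455 libraries than in either vehicle library, VIM and TWIST1 sit higher, and the libraries of SNAI1 and ESRP2 overlap.

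Levels of different genes were set side by side per kb of exon. The divisor was every annotated exon base of a gene (21963 for ZEB2, 17315 for FN1). It can exceed the length of the transcripts present and includes bases shared with other genes, so the order is approximate. The mean levels with vehicle ran from 139 CPM per kb for VIM to 0.729 for SNAI1. VIM was followed by SNAI2 (34.4), CDH2 (10.1), TWIST1 (8.33), ZEB1 (4.87), ESRP1 (2.56), FN1 (2.28), ZEB2 (2.25) and ESRP2 (1.16). In this order the libraries of each gene lay apart from those of the next, with the exception of FN1 and ZEB2, whose vehicle libraries overlapped (2.24 and 2.32 against 2.16 and 2.34 CPM per kb). With CPI-455, VIM (287) and SNAI2 (27.2) kept the first places and TWIST1 (15.9) stood before CDH2 (2.41), ZEB1 (2.30), ZEB2 (1.44), SNAI1 (1.18), FN1 (0.860), ESRP2 (0.632) and ESRP1 (0.432). Among neighbours in this order, the CPI-455 libraries of CDH2 overlapped those of ZEB1, those of SNAI1 overlapped both ZEB2 and FN1, and those of ESRP2 overlapped both FN1 and ESRP1.

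Among the transcription factors, ZEB1 was the only one of the 5 called. ZEB1, a zinc-finger repressor of CDH1 and of microRNA genes of the miR-200 family, lies on chromosome 10 (31318495 to 31529814, plus strand, GRCh38) with 8650 bases of exon. It was counted 862 and 954 times in the vehicle libraries, and 166 and 107 times under CPI-455, which is 40.7 and 43.6 CPM against 18.6 and 21.2 CPM. Both CPI-455 libraries were at about the same level and well below both vehicle libraries. ZEB1 thus fell from 42.1 ± 2.03 to 19.9 ± 1.80 CPM (SD, n = 2 each), a log2 fold change of -1.09 (SE 0.17, 95% interval -1.46 to -0.72, edgeR FDR = 0.000354). The change was just past the 2-fold threshold, and it was -0.92 with upper-quartile scaling. After a smooth trend on length and GC of the exons was taken out of each library, it was -0.56 (edgeR FDR = 0.0112), so the call was lost under both.

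The antisense RNA gene ZEB1-AS1, which shares 366 exon bases with ZEB1 on the opposite strand, moved the other way. It had 114, 95, 140 and 80 counts in the order vehicle 1, vehicle 2, CPI-455 1 and CPI-455 2, or 5.38, 4.34, 15.7 and 15.8 CPM, and was called higher (log2 fold change 1.70, SE 0.26, edgeR FDR = 0.000392). Both CPI-455 libraries were above both vehicle libraries. Counting did not use strand, and by default fragments that fit both genes of the pair are left out. The shared bases made up 4.23% of the exon length of ZEB1. A second overlapping gene, the pseudogene SPTLC1P1, shares no exon base with ZEB1 and had at most 1 count in a library.

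ZEB2, the paralog of ZEB1 with a like repressor function, lies on chromosome 2 (144384081 to 144524583, minus strand) and has the longest exon sequence of the 10 genes, 21963 bases. The vehicle libraries held 1006 and 1127 counts, the CPI-455 libraries 264 and 171, or 47.5 and 51.5 against 29.6 and 33.8 CPM. The groups did not overlap, but the difference was smaller than for ZEB1. The log2 fold change was -0.65 (SE 0.15, 95% interval -0.99 to -0.31, edgeR FDR = 0.00467), below the 2-fold threshold, and it was not called. ZEB2-AS1, which shares 842 exon bases with ZEB2, had 3, 6, 0 and 2 counts and was not tested.

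SNAI2, the Slug repressor, was the second most abundant of the 10 genes per kb in every library and lies on chromosome 8 (48917690 to 48921740, minus strand). The counts of 1710 and 1672 under vehicle and of 544 and 319 under CPI-455 gave 80.8 and 76.4 against 61.0 and 63.1 CPM. The CPI-455 libraries were lower by a margin larger than the spread within either group. The log2 fold change was -0.34 (SE 0.12, 95% interval -0.62 to -0.06, edgeR FDR = 0.0373), which is under 2-fold and was not called. Its FDR depended on the setting. In edgeR it was 0.271 with upper-quartile factors and 0.078 with the length and GC trend removed, and in DESeq2 0.0965. With library totals it was 0.00478 and with no filter 0.00813, both in edgeR.

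TWIST1, a basic helix-loop-helix factor on chromosome 7 (19020991 to 19117672, minus strand), was higher in both CPI-455 libraries. Its counts were 355, 374, 276 and 170 in the order given above, or 16.8, 17.1, 31.0 and 33.6 CPM. The 4 values formed a low pair and a high pair with no overlap. The log2 fold change of 0.93 (SE 0.17, 95% interval 0.54 to 1.31, edgeR FDR = 0.00121) fell just short of 2-fold, so TWIST1 was not called, whereas VIM at 1.04 was. With upper-quartile scaling it was 1.10 and called. An overlapping antisense gene, ENSG00000232821, shares 141 exon bases with TWIST1 and had at most 4 counts in a library.

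SNAI1, the Snail repressor, was near the detection limit. The gene lies on chromosome 20 (49982999 to 49988886, plus strand) and has the shortest exon sequence of the 10, 1686 bases. In the order vehicle 1, vehicle 2, CPI-455 1 and CPI-455 2, its counts were 25, 28, 25 and 6, or 1.18, 1.28, 2.80 and 1.19 CPM. The second CPI-455 library lay within the range of the vehicle libraries and the first above it. Relative to the counts that the vehicle level would have given at their depth, the CPI-455 libraries held 228% and 96.5%. Their Poisson intervals were 1.82 to 4.14 and 0.436 to 2.58 CPM, and the log2 fold change of 0.75 (SE 0.62, 95% interval -0.65 to 2.15, edgeR FDR = 0.317) left no change detectable at this depth. Its sign depended on 1 library, since the value was -0.07 without CPI-455 replicate 1 and 1.14 without CPI-455 replicate 2, the latter past both thresholds (edgeR FDR = 0.0456).

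Of the 3 mesenchymal genes, CDH2 and FN1 fell while VIM rose. CDH2, which encodes N-cadherin, an adhesion protein of nerve and mesenchymal cells, lies on chromosome 18 (27950966 to 28177446, minus strand). Its 1103 and 1051 counts under vehicle stood against 89 and 70 under CPI-455, or 52.1 and 48.0 against 9.98 and 13.8 CPM. The counts in the CPI-455 libraries were 19.9% and 27.7% of those the vehicle level would have given at their depth. CDH2 was thus 4.29-fold lower (50.1 ± 2.89 against 11.9 ± 2.73 CPM, SD, n = 2 each), with a log2 fold change of -2.10 (SE 0.20, 95% interval -2.54 to -1.66, edgeR FDR = 1.75e-05). Of all tested genes, 7.14% had a lower log2 fold change than CDH2.

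FN1 encodes fibronectin, a matrix glycoprotein that cells bind through integrins, and lies on chromosome 2 (215360440 to 215436172, minus strand) with no overlapping gene. Its counts were 821, 880, 142 and 70, or 38.8 and 40.2 CPM with vehicle against 15.9 and 13.8 CPM with CPI-455. The pairs were tight and did not overlap. FN1 fell 2.63-fold (39.5 ± 1.00 against 14.9 ± 1.47 CPM, SD, n = 2 each), with a log2 fold change of -1.40 (SE 0.17, 95% interval -1.78 to -1.01, edgeR FDR = 0.0001).

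VIM encodes vimentin, the intermediate filament protein of mesenchymal cells, and lies on chromosome 10 (17228259 to 17237593, plus strand). It was the most abundant of the 10 genes, with 13757 and 16088 counts under vehicle, 11892 and 7666 under CPI-455, and its mean level was above that of 99.5% of all tested genes. On the CPM scale this was 650 and 735 against 1334 and 1516. Each CPI-455 library was above each vehicle library. VIM rose 2.06-fold (692 ± 60.2 to 1425 ± 129 CPM, SD, n = 2 each), with a log2 fold change of 1.04 (SE 0.12, 95% interval 0.78 to 1.30, edgeR FDR = 4.92e-05), and 76.9% of all tested genes had a lower log2 fold change. The size was so near 2-fold that scaling by library totals gave 0.85 and leaving out vehicle replicate 1 or CPI-455 replicate 2 gave 0.93 and 0.90, each with an FDR below 0.05 but under 2-fold. The fibroblast and leukocyte marker sums given above, at most 11.3 and 2.37 CPM, were also higher in both CPI-455 libraries, through few genes. Their part in the rise of VIM was not tested.

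Of the VIM exons, 1260 bases (25.4%) are also covered by genes on the opposite strand, 641 bases by VIM-AS1 and 619 bases by ENSG00000234961. By default, fragments that fit VIM and either of these genes are left out of the VIM counts. VIM-AS1 had 52, 46, 16 and 7 counts, or 2.46, 2.10, 1.80 and 1.38 CPM, and ENSG00000234961 had none. VIM-AS1 was not called (log2 fold change -0.49, SE 0.52, edgeR FDR = 0.433), and its level was far under that of VIM in every library.

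**Figure D2:**
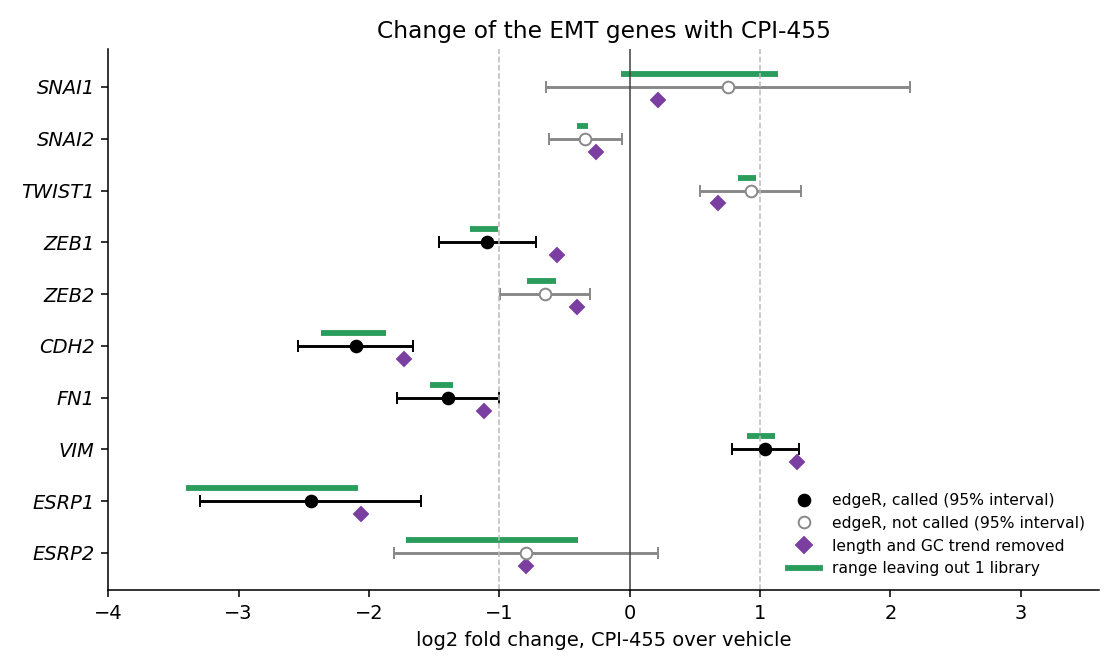
The log2 fold change (CPI-455 over vehicle) of each EMT gene, with its 95% interval from edgeR as points and bars (filled where called), the value after removal of the length and GC trend as diamonds, and the range over the fits that leave out 1 library as green bars. Dashed lines mark 2-fold. CDH2, FN1 and ESRP1 lie beyond -1 by every measure drawn. The 95% interval of ZEB1 crosses -1 (-1.46 to -0.72), and its value with the trend removed is -0.56. The green bar of SNAI1 crosses 0 (-0.07 to 1.14).

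Both epithelial splicing regulators had few counts with CPI-455, and ESRP1 fell. ESRP1, an RNA-binding protein on chromosome 8 (94641074 to 94707466, plus strand), was counted 267 and 270 times under vehicle but 27 and 6 times under CPI-455, or 12.6 and 12.3 against 3.03 and 1.19 CPM. The vehicle libraries were almost equal, and both CPI-455 libraries lay well below them. With no change, 111 and 63.0 counts would have been found at the depth of the CPI-455 libraries. The 6 counts of the second library were above the floor of 3 but gave a wide interval, 0.436 to 2.58 CPM. ESRP1 was 5.45-fold lower (12.5 ± 0.196 against 2.11 ± 1.30 CPM, SD, n = 2 each), with the lowest log2 fold change of the 10 genes, -2.45 (SE 0.38, 95% interval -3.29 to -1.60, edgeR FDR = 0.000389). It was called with either CPI-455 library left out, with values from -3.40 to -2.08 over the fits that left out 1 library.

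ESRP2, the paralog of ESRP1, lies on chromosome 16 (68229111 to 68238102, minus strand). The vehicle libraries held 168 and 109 counts of it, the CPI-455 libraries 45 and 10, or 7.93 and 4.98 against 5.05 and 1.98 CPM. The first CPI-455 library was level with the second vehicle library, so the groups overlapped. ESRP2 also differed most between the vehicle libraries, 1.59-fold, against ratios of 0.884 to 1.09 for the other genes. Its log2 fold change of -0.79 (SE 0.45, 95% interval -1.81 to 0.22, edgeR FDR = 0.151) was not called, and the interval holds both no change and a change as large as that of FN1. The value moved with each library left out, to -1.72 without CPI-455 replicate 1, which was called (edgeR FDR = 0.00027), and to -0.40 without CPI-455 replicate 2, -0.49 without vehicle replicate 1 and -1.16 without vehicle replicate 2, none of them called. The 223 exon bases that ESRP2 shares with other genes include 149 shared with NFATC3 on the other strand, a gene with 1281, 1392, 200 and 117 counts.

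**Figure D3:**
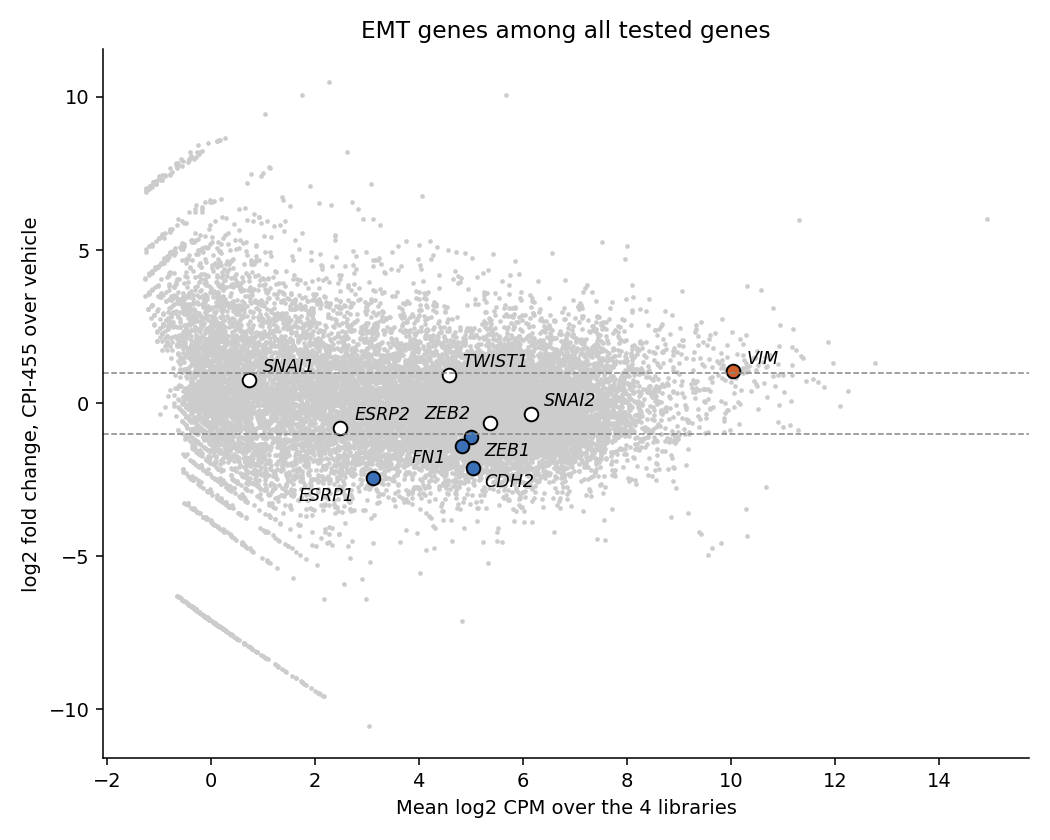
Mean log2 CPM over the 4 libraries against log2 fold change (CPI-455 over vehicle) for all 17600 tested genes in grey, with the EMT genes named, blue where called lower, orange where called higher and white where not called. The dashed lines mark 2-fold. VIM has the highest and SNAI1 the lowest mean level of the 10, and ESRP1 has the lowest log2 fold change of the 10 (-2.45).

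Ratios of a pair of genes within a library do not depend on how libraries were scaled. A trend on exon length and GC that differs between libraries does not cancel in them. The pairs were picked with their values in view and have no test. With 2 libraries a group the smallest p of a 2-sided exact permutation test would be 0.333. The ratio of VIM to CDH2 per kb was 12.4 and 15.3 under vehicle, against 133 and 109 under CPI-455. That of VIM to the epithelial keratin gene KRT18 was 6.20 and 6.88, against 18.9 and 17.3. Both ratios were higher in each CPI-455 library than in either vehicle library.

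Within the transcription factors, the ratio of TWIST1 to SNAI2 was 0.233 and 0.251 under vehicle, against 0.569 and 0.598 under CPI-455, and that of ZEB2 to ZEB1 was 0.460 and 0.465 against 0.626 and 0.629. The libraries of a group were close to each other in both. With the length and GC trend removed, the genes of each pair differed less in their log2 fold changes. These were then -0.40 for ZEB2 and -0.56 for ZEB1, and 0.68 for TWIST1 and -0.26 for SNAI2. The ratio of CDH2 to CDH1, the N-cadherin and E-cadherin genes, was 1.44 and 1.51, against 2.22 and 1.36. Its groups overlapped, and CDH1 itself fell (45.2 and 39.7 against 5.61 and 12.7 CPM, log2 fold change -2.30, SE 0.30, edgeR FDR = 0.00014).

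**Figure D4:**
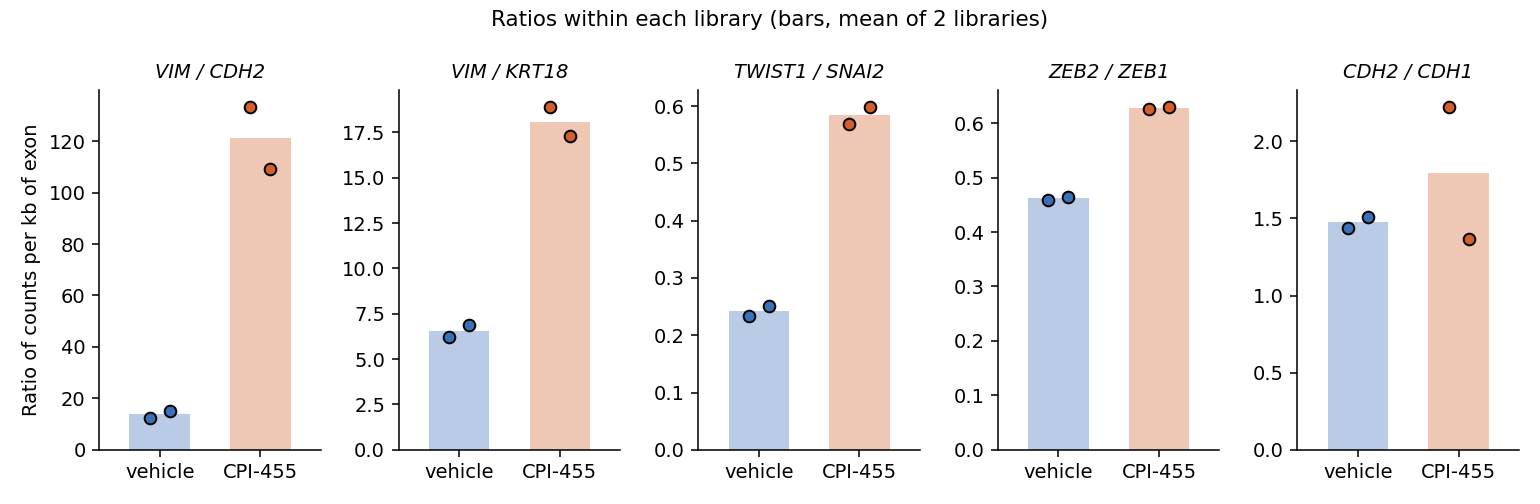
Ratios of the levels per kb of exon of 5 pairs of genes within each library, with points for libraries and bars for the mean of the 2 libraries of a group, vehicle in blue and CPI-455 in orange. The ratios of VIM to CDH2 and to KRT18, of TWIST1 to SNAI2 and of ZEB2 to ZEB1 are higher in both CPI-455 libraries, and that of CDH2 to CDH1 overlaps (1.36 and 2.22 against 1.44 and 1.51).

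Other genes that drive or mark EMT were taken from lists, for comparison with the 10. Each list's counts are to be read beside all tested genes, of which 21.3% were called lower and 21% higher. Of 14 tested factors among 15 further EMT transcription factors, 4 fell (among them PRRX1, FOXC2 and ETS1), 1 rose (SOX4) and 9 were not called, and the median log2 fold change was -0.48. The 4 called lower became 2 with either vehicle library left out or with DESeq2, 1 with the length and GC trend removed and 0 with glmTreat, and without CPI-455 replicate 2 the list had 2 genes called higher. SOX4, an HMG-box factor, went from 168 and 155 to 465 and 506 CPM (log2 fold change 1.59, SE 0.11, edgeR FDR = 3.77e-06).

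The factors that maintain the epithelial state were also split. Of 7 tested factors among 8 listed, EHF, GRHL2 and GRHL3 fell and ELF3 rose. EHF, an ETS factor of epithelia, had 22.9 and 21.1 CPM under vehicle, against 5.39 and 7.32 (log2 fold change -1.82, SE 0.24, edgeR FDR = 0.000161). GRHL2, a grainyhead factor known to restrain ZEB1, had 12.4 and 14.2 against 5.72 and 1.78 CPM (log2 fold change -1.71, SE 0.40, edgeR FDR = 0.00464). GRHL3 had 19 and 36 counts with vehicle and 0 in both CPI-455 libraries. ELF3, another ETS factor, was lowly expressed with vehicle, at 1.46 and 2.01 CPM, and reached 9.42 and 18.6 CPM with CPI-455 (log2 fold change 2.98, SE 0.41, edgeR FDR = 0.000209). The median of the 7 was 0.46. Without CPI-455 replicate 1, 2 of the list were called higher, and with at least 10 counts required in every library, 1 was called lower.

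Among mesenchymal and matrix genes, 12 of 25 tested (38 listed) were called lower and 3 higher. Their median log2 fold change was -0.87. TNC, which encodes the matrix protein tenascin-C, was counted 509 and 606 times under vehicle but 14 and 5 times under CPI-455, or 24.0 and 27.7 against 1.57 and 0.989 CPM (log2 fold change -4.25, SE 0.31, edgeR FDR = 4.06e-06). ITGB1, the beta-1 subunit of the fibronectin receptors, went from 168 and 171 to 27.9 and 47.7 CPM (log2 fold change -2.20, SE 0.21, edgeR FDR = 1.93e-05). MMP14, a membrane-bound matrix protease, rose from 3.50 and 3.93 to 14.0 and 21.0 CPM (log2 fold change 2.22, SE 0.30, edgeR FDR = 0.000159). The other genes called higher were CALD1 (log2 fold change 1.51), which encodes the actin-binding protein caldesmon, and COL1A1 (1.00), which was at the 2-fold threshold. Without CPI-455 replicate 1, 5 genes of the list were called higher. Of the 38 genes, 13 were not tested, among them POSTN, DCN and LUM with at most 5 counts in any library.

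Among genes of epithelial adhesion and polarity, 11 of 28 tested (29 listed) were called lower and 2 higher. Their median log2 fold change was -0.81, or -0.50 after removal of the length and GC trend. CDH1 had the largest called decrease among those with a mean of at least 10 CPM, and the tight junction gene OCLN (43.2 and 52.1 against 9.76 and 12.1 CPM, log2 fold change -2.15, SE 0.20, edgeR FDR = 1.57e-05) came next. LLGL2, a gene of basolateral polarity, rose from 15.5 and 14.7 to 43.6 and 42.7 CPM (log2 fold change 1.52, SE 0.16, edgeR FDR = 3.88e-05), and MUC1 was the other gene called higher (log2 fold change 1.63). Without vehicle replicate 2, without CPI-455 replicate 1 or with library totals, 1 gene of the list was called higher. The mesenchymal list had a median of -0.79 with the length and GC trend removed, against the -0.50 of the epithelial list, and no test of their difference was made.

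**Figure D5:**
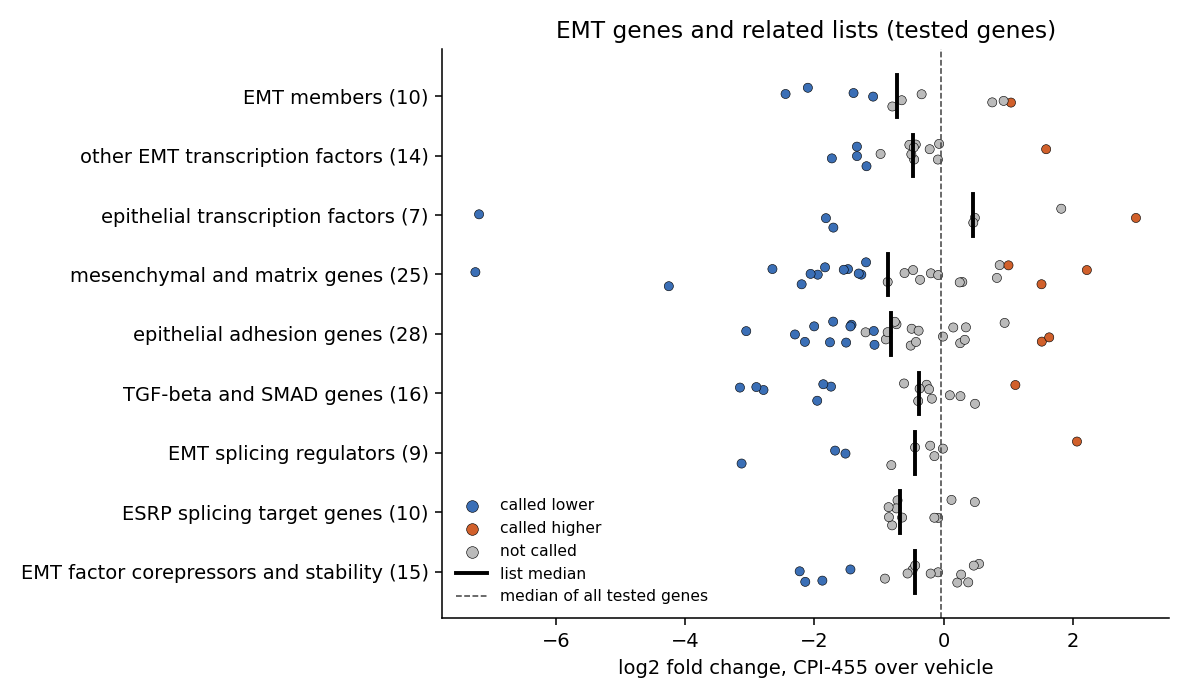
The log2 fold change (CPI-455 over vehicle) of each tested gene of the EMT genes and of 8 related lists, 1 point per gene, blue where called lower, orange where called higher and grey where not called, with the list median as a black bar and the median of all tested genes (-0.04) as a dashed line. The EMT genes have their median at -0.72, the mesenchymal list at -0.87 and the epithelial adhesion list at -0.81.

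Beside ESRP1 and ESRP2, 9 further splicing regulators that act in EMT were tested, of which 3 fell and 1 rose (median log2 fold change -0.44). RBM47, an epithelial RNA-binding protein, went from 22.7 and 19.6 to 1.91 and 3.17 CPM (log2 fold change -3.13, SE 0.31, edgeR FDR = 2.26e-05). RBFOX2 and QKI, which favour mesenchymal exon patterns, fell with log2 fold changes of -1.68 and -1.52. SRSF1 rose from 200 and 211 to 840 and 875 CPM (log2 fold change 2.06, SE 0.11, edgeR FDR = 8.89e-07). With the length and GC trend removed the median was -0.18.

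None of 10 genes whose transcripts are known splicing targets of the ESRP proteins was called in edgeR's test with all 4 libraries, and their log2 fold changes ran from -0.85 to 0.48 around a median of -0.68, while 6 of them had an FDR below 0.05 and a negative value. FGFR2, the receptor whose epithelial isoform depends on ESRP proteins, had 44.6 and 50.8 against 33.9 and 23.3 CPM (log2 fold change -0.71, SE 0.19, edgeR FDR = 0.00928). With either CPI-455 library left out, with library totals or with no filter, 2 of the 10 were called lower. The median was -0.19 with the length and GC trend removed. The counts are totals over all transcripts of a gene, and exon use was not measured in the counts.

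TGF-beta signalling, a main inducer of EMT, was covered by 16 tested genes, of which 6 fell and 1 rose (median log2 fold change -0.38). TGFBR1, the type I receptor, went from 171 and 175 to 22.3 and 24.1 CPM (log2 fold change -2.90, SE 0.13, edgeR FDR = 5.92e-07). SMAD6, an inhibitory SMAD, rose from 11.6 and 8.77 to 22.6 and 21.4 CPM (log2 fold change 1.11, SE 0.23, edgeR FDR = 0.0021). The signal-carrying SMAD2, SMAD3 and SMAD4 were not called, with log2 fold changes of -0.26, -0.23 and -0.37. Removal of the length and GC trend left a list median of -0.17, and no gene of the list was called higher without vehicle replicate 2, with library totals or with no filter.

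Of 15 corepressors of the SNAI and ZEB proteins and regulators of their stability, 4 were called lower and none higher. The 4 were 26.7% of the list, against 21.3% called lower of all tested genes. At any size of change, 8 had an FDR below 0.05 and a negative value and 3 a positive one, the latter KDM1A (log2 fold change 0.55), CSNK1E (0.47) and HDAC1 (0.38). The list median was -0.44, and 0.05 with the length and GC trend removed. Those called were FBXL14, BTRC, GSK3B and MDM2, which act in the phosphorylation or ubiquitination of SNAI proteins or other substrates. FBXL14, a ubiquitin ligase subunit, went from 31.0 and 34.3 to 7.85 and 5.74 CPM (log2 fold change -2.23, SE 0.22, edgeR FDR = 2.47e-05). Protein levels were not measured. Of 4 tested neuroendocrine markers, CHGA and NCAM1 fell (log2 fold changes -1.32 and -1.31), and NCAM1 is also in the mesenchymal list. SYP (0.69, edgeR FDR = 0.106) and ENO2 (0.50, edgeR FDR = 0.0154) went the other way and were not called. With either vehicle library or CPI-455 replicate 1 left out, with DESeq2, with glmTreat or with the length and GC trend removed, 1 of the 4 was called lower.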

How the data were processed

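RNA-seq libraries of LNCaP cells were analysed, 2 with R1881 and vehicle and 2 with R1881 and CPI-455. The authors trimmed reads with Trim Galore, ran STAR against GRCh38 and used featureCounts 1.5.0-p1 on Ensembl release 83 to count fragments. Counts were deposited raw, per gene and library, without normalization. The header shows no strand option, and fragments that fit several genes or places are left out by default.

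Symbols were matched for 56558 of 60675 genes, and gene types came from GENCODE release 44. Counts were fitted with edgeR 4.0.16 in R 4.3.3 (TMM, filterByExpr with a minimum of 10 counts, glmQLFit and glmQLFTest, no covariates), and an FDR (Benjamini-Hochberg over all 17600 tested genes) below 0.05 with a change of at least 2-fold was called, the thresholds of the paper. The SE is the log2 fold change divided by the square root of the F statistic. Alternatives used other scalings and filters, DESeq2 1.42.0, edgeR's likelihood-ratio test and glmTreat, a replicate block, removal of a smooth length and GC trend (mgcv 1.9.3) and leaving out each library. The script was tested on simulated data. Depth was 5401588 to 20690819 counts per library.

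The 10 genes and the lists were chosen with earlier results of these data known. Besides the 10, the text names genes that overlap them and, per list, the largest called change in each direction at a mean of at least 10 CPM, or the called genes where few. ITGB1, OCLN, FGFR2, CALD1, COL1A1, MUC1, KRT18, RBFOX2, QKI, KDM1A, CSNK1E, HDAC1, the SMAD genes and the untested genes were chosen after their values were seen. Some genes that this rule names are not reported here. Sequences are from RefSeq.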

Additional observations from a re-analysis of the deposited data

How the results depend on the processing

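CDH2 and FN1 were called in every setting run and ESRP1 wherever it passed the filter. Over 13 settings, the number of the 10 genes called ranged from 3 to 5. Testing against a 2-fold change with glmTreat called 3 of them, all lower (CDH2, FN1 and ESRP1), and 4805 genes in all (2350 lower, 2455 higher). This test asks whether a change exceeds 2-fold by more than its error. VIM (1.04, glmTreat FDR = 0.375) and ZEB1 (-1.09, glmTreat FDR = 0.299) were past 2-fold but not called by it. ZEB1 missed the 2-fold threshold with upper-quartile factors (-0.92) and with the length and GC trend removed (-0.56). VIM missed it with library totals (0.85) and with no filter (0.89), and TWIST1 passed it with upper-quartile factors (1.10). Leaving out 1 library gave 4 to 6 called genes, and SNAI1 then ranged from -0.070 to 1.14, with its sign changed without CPI-455 replicate 1. These fits assume that the lone library varies like the other group. Requiring 10 counts in every library dropped SNAI1 and ESRP1 from the test. The median of all genes shifted from -0.04 to 0.14 with upper-quartile factors and to -0.23 with library totals, and the split of calls from 3756 lower and 3698 higher to 3096 and 4298, and to 4569 and 3125. Without a filter, 4533 genes were called lower and 3311 higher. Same-numbered libraries deviated together with a correlation of only 0.04, and the labels do not say that numbers pair cultures. A replicate block called 5 of the 10 genes, 4 lower and 1 higher, and 7167 genes in all, and with the length and GC trend removed as well it gave ZEB1 -0.55, not called. Depth limits SNAI1, ESRP1 and ESRP2, which had 6, 6 and 10 counts in the shallowest library. Tested genes at 0 in both CPI-455 libraries were rare, with 1 in the epithelial transcription factor list and 1 in the mesenchymal list. Setting them to their bound at the floor of 3 counts left the list medians the same. A single gene can hardly move a median, so this says little about the lists.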
